A study of Mus musculus with 6 samples.

Results

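The clustered replication-dependent histone genes of the mouse were taken as every protein-coding gene whose GENCODE M21 symbol starts with Hist1h, Hist2h, Hist3h or Hist4h. The annotation holds 67 of them, 57 had a row in the deposited table of 21135 genes, and 53 were among the 17815 genes tested. Their expression was compared between DN3 thymocytes in which both alleles of NMe carry mutated GATA sites 1 and 2 (3 libraries, called mutant) and DN3 thymocytes with the wild-type NMe (3 libraries), all from C57BL/6 mice. NMe is a Notch-bound distal enhancer of Myc. DN3 thymocytes are the CD4- CD8- stage of the thymus at which the T-cell receptor beta gene is rearranged and after which cells divide rapidly. The labels give neither age nor sex, and do not say that the libraries of a genotype came from separate animals, so that the spread behind each p-value is that between libraries and may be technical.

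Histones package DNA. The core types H2A, H2B, H3 and H4 form the nucleosome, and H1 binds the DNA that enters and leaves it. The clustered genes supply new histones during DNA synthesis, and their messages differ from other mRNAs: the transcript is cut just past a short stem-loop, carries no poly(A) tail, and is handled by SLBP, the protein that binds the stem-loop. Some of these genes also give polyadenylated transcripts that read past the stem-loop, a form known mainly from differentiating cells. The kit used here primes cDNA on poly(A) tails, so the values below describe what such priming captured, and say little of the total histone mRNA. In a bulk sample, fewer cells of a kind and less RNA per cell cannot be told apart.

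Recovered reads came to 38.6 to 48.3 M in the mutant libraries and 42.4 to 51.3 M in the wild-type libraries. Myc, the gene that NMe acts on, averaged 5446 ± 783 normalised reads in the mutant and 19153 ± 1079 in the wild type (SD, n = 3 each; log2 change -1.82 ± 0.12, SE). The list for DN3 thymocytes held Il2ra, Ptcra, Notch1, Rag1, Rag2, Cd3e, Lck, Bcl11b, Tcf7, Dtx1, Cd44 and Kit. Cd44 and Kit also mark earlier stages, so the list is not one of DN3 alone. All 12 had a row, and they moved with genotype: 5 of 12 rose and 2 fell. Across all genes 7.94% were called higher and 10.9% lower (limma, adjusted p under 0.05). The 12 genes summed to 463837 to 523778 in the mutant and 368764 to 406404 in the wild type. Hemoglobin and other red-cell genes summed to 8177 normalised reads in wild type replicate 2 and to 16.01 to 61.5 in the other 5 libraries, among which the mutant libraries held 34.2 to 56.1. Of 8 markers of double-positive or later thymocytes 2 rose and 1 fell. Their sums overlapped, at 10880 to 14777 in the mutant and 9991 to 13827 in the wild type. Singly, 87.5% of these 8 genes did not overlap between the genotypes, against 38.3% of all genes tested. All 7 tested markers of gamma-delta T cells rose in the mutant (100%, against 7.94% of all genes). Over 8 genes they summed to 143109 to 226905 in the mutant and 101880 to 122479 in the wild type. Of 6 B-cell markers 4 had a row (summed 2438 to 3875 in the mutant and 2356 to 2782 in the wild type), of 8 myeloid markers 7 (1334 to 2302 in the mutant and 1247 to 1799.5 in the wild type), of 5 NK markers 3 (9819 to 13818 in the mutant and 9264 to 10289 in the wild type) and of 8 epithelial and stromal markers 4 (9984 to 13544 in the mutant and 8229 to 10044 in the wild type). Among these 1 was called, Pecam1 (named after its value was seen), which rose. Ms4a1, Pax5, S100a8, Ncr1, Klrd1, Krt5, Krt8, Foxn1 and Pdgfra had no row. What part cell makeup had in the histone values was not tested.

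The stem-loop is shown here because it is the feature that sets these messages apart, and because the genes described below carry different forms of it. It was found in the annotated transcripts of 46 of the 67 genes, by a search for a fixed pattern after the longest open frame. Of 48 genes with at least 60 annotated bases after the stop codon 44 held one. The 4 in which none was found, Hist1h2bq, Hist1h2br, Hist1h2bc and Hist2h2be, all encode H2B. The models of Hist1h2bq, Hist1h2br and Hist1h2bc have several exons. An element in an intron, or of another form, would be missed. Each element has 16 bases, with 2 arms of 6 bases (capitals) around a loop of 4 bases. The DNA sense strand of the GENCODE M21 transcripts is given 5′ to 3′:
Hist1h2ae and 25 other genes of types H1, H2A, H2B and H3: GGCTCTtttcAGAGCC
Hist1h4d and 6 other H4 genes: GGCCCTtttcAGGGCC
Hist1h3c, Hist1h2bk and 4 other genes: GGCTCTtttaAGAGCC
Hist1h4i and Hist2h4: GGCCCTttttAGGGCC
On GRCm38 the element of Hist1h2ae lies at chr13:23570668-23570683 (minus strand), that of Hist1h4d at chr13:23581950-23581965 (plus strand), that of Hist1h3c at chr13:23745047-23745062 (minus strand) and that of Hist1h4i at chr13:22040966-22040981 (minus strand). The other 5 genes carried further forms that differ in an arm or the loop. The element began 21 to 58 bases after the stop codon (median 31). Annotated transcripts went on for 3 to 4884 bases beyond it (median 91), so that most of these models reach past the point where the mature message would end.

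The 57 genes with a row comprised 5 of H1, 14 of H2A, 15 of H2B, 10 of H3 and 13 of H4. By cluster, 50 belong to Hist1 on chromosome 13, where 22 lie between 21715763 and 22043676 and 28 between 23531050 and 23764406. The remaining 4 belong to Hist2 on chromosome 3, 2 to Hist3 on chromosome 11 and 1 to Hist4 on chromosome 6. Together they took 0.0311%, 0.0376% and 0.0480% of the reads in the mutant libraries, against 0.0475%, 0.0327% and 0.0297% in the wild-type libraries. The genotypes overlapped in this share. Summed normalised reads were 16911 ± 3339 in the mutant and 16617 ± 4158 in the wild type (SD, n = 3 each), a ratio of 1.02.

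The level was spread unevenly over the members. Mean normalised reads ran from 3.40 to 4220 with a median of 94.99, with 4 genes at 1000 or more and 22 under 50. One H2A gene, Hist3h2a, held 25.2% of the sum of all members. Per kilobase of annotated exon, the highest were Hist3h2a at 1967 normalised reads, Hist1h2ae at 1820, Hist1h2ap at 1433, Hist1h4d at 1341, Hist1h1b at 1313 and Hist1h2bg at 1004. Histone genes outside the clusters, which are generally polyadenylated, ranged from 33.1 to 24433 normalised reads per kilobase over 11 genes. H3f3b, which encodes the replacement histone H3.3, was the highest, the H2A variant gene H2afz had 20776 normalised reads per kilobase, H3f3a (also H3.3) 6172, and H2afx, the H2A variant marked at DNA breaks, 6088. Besides these, H2afv (6593) and H2afy (4197) lay above every clustered gene, while H1f0, a linker histone of resting cells (1897), H2afj (1219), Cenpa (954), H1fx (50.1) and H2afy2 (33.1) lay within the range of the clustered genes.

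**Figure D1:**
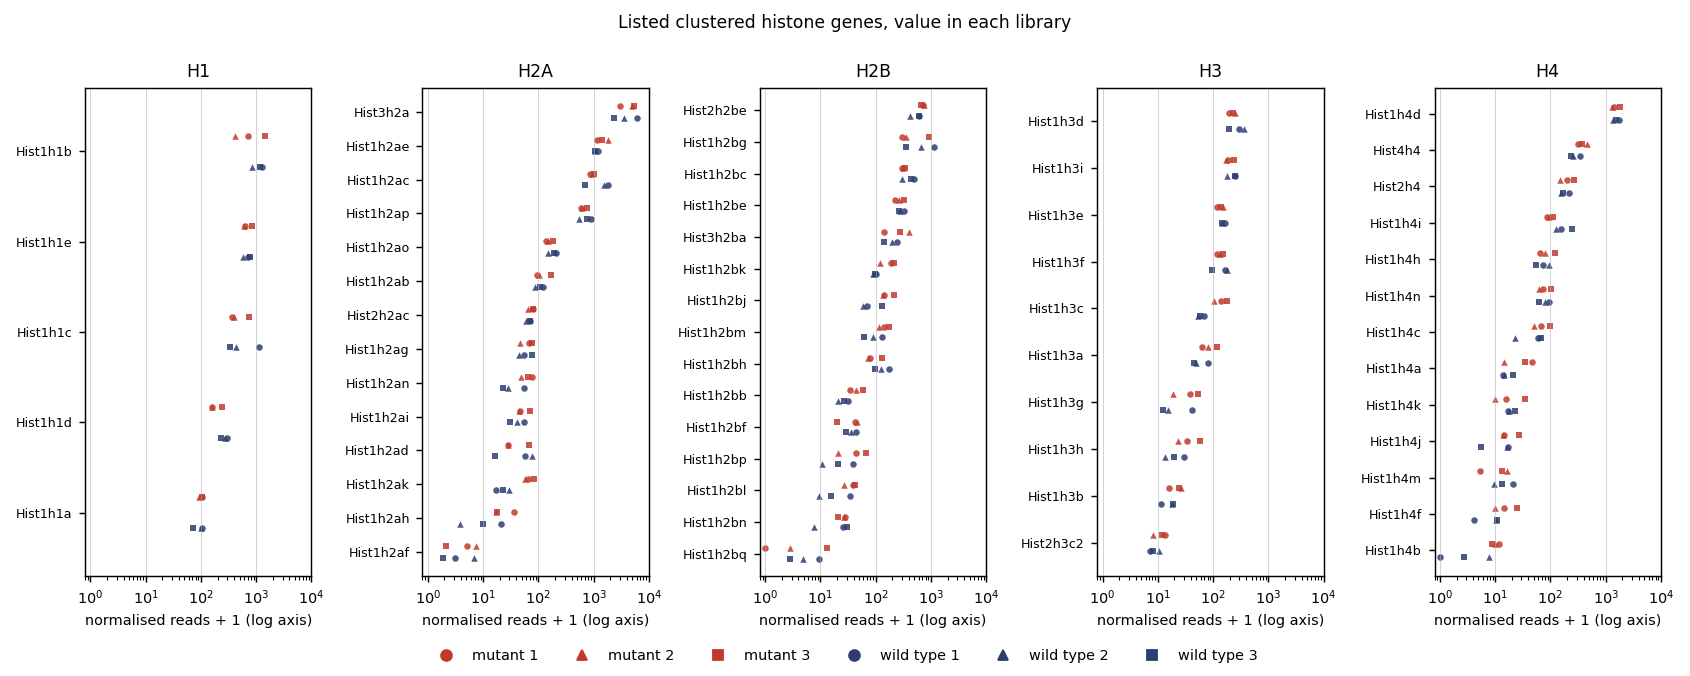
Normalised reads plus 1 (log axis) of the 57 listed clustered histone genes in each library, by histone type, with mutant libraries in red and wild-type libraries in blue and a symbol for each replicate number. Hist3h2a leads the H2A panel at 2342 to 6006, and for most genes the red and blue points interleave.

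Of the 53 tested members 2 rose in the mutant and 0 fell, a share of 3.77%. Across all genes 18.8% were called, 7.94% higher and 10.9% lower (limma, Benjamini-Hochberg adjusted p under 0.05 over the 17815 genes). At an unadjusted p under 0.05, 7 members lay higher and 2 lower, against 15.9% and 17.5% of all genes. On the recovered reads edgeR called 3 members higher and 0 lower (8.2% and 10.2% of all genes), and DESeq2 called 4 higher and 1 lower (10.6% and 12.8%). The 3 mutant libraries lay above the 3 wild-type libraries in 6 members and below them in 1, together 13.2% of the members, against 38.3% of all genes tested. The share of calls depends on level, and most members are low: at a mean of 10 to 50 normalised reads 1 of 18 members was called, against 4.74% of genes at that level, and at 50 to 200 it was 1 of 18, against 14.4%. At 200 to 1000 it was 0 of 13 against 25.5%, and at 1000 or more 0 of 4 against 26%. Among genes at 1000 or more, the median residual SD of the log2 values was 0.38 for members and 0.14 for all genes.

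The 2 genes that rose are Hist1h2ak, an H2A gene, and Hist1h3c, an H3 gene. Hist1h2ak (chromosome 13, 21753435 to 21753827, minus strand) had 63.3, 55.2 and 82.7 normalised reads in the mutant libraries, against 15.9, 28.6 and 22.2 in the wild-type libraries. Every mutant library was above every wild-type library. The means were 67.1 ± 14.1 and 22.3 ± 6.37, and the log2 change was 1.57 ± 0.37 (SE; 95% confidence interval 0.74 to 2.39; limma adjusted p = 0.0162). None of its stretches of 150 bases is found in another annotated gene. Its exon does overlap that of the miRNA gene Gm44454 on the plus strand, which has no row, and stretches of that length did not show this.

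Hist1h3c (chromosome 13, 23744973 to 23745602, minus strand) had 138, 101 and 178 normalised reads in the mutant libraries, against 66.8, 53.5 and 57.8 in the wild-type libraries. Again no mutant value fell among the wild-type values. The means were 139 ± 38.1 and 59.4 ± 6.80, and the log2 change was 1.18 ± 0.28 (0.55 to 1.82; limma adjusted p = 0.0173). Both calls fell just short when mutant replicate 3, the library in which both genes were highest, was left out. The limma adjusted p was then 0.0558 for Hist1h2ak (log2 change 1.41) and 0.0572 for Hist1h3c (0.99). Without mutant replicate 1 it was 0.0425 for Hist1h2ak and 0.0489 for Hist1h3c. Over all genes 2719 were called without mutant replicate 3, against 3352 with all libraries. The call of Hist1h3c was lost as well when wild type replicate 2 was left out (adjusted p = 0.0623, log2 change 1.11). Without mutant replicate 3, 0 members were called higher and 2 lower, both H1 genes, where 6.6% and 8.66% of all genes were called.

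**Figure D2:**
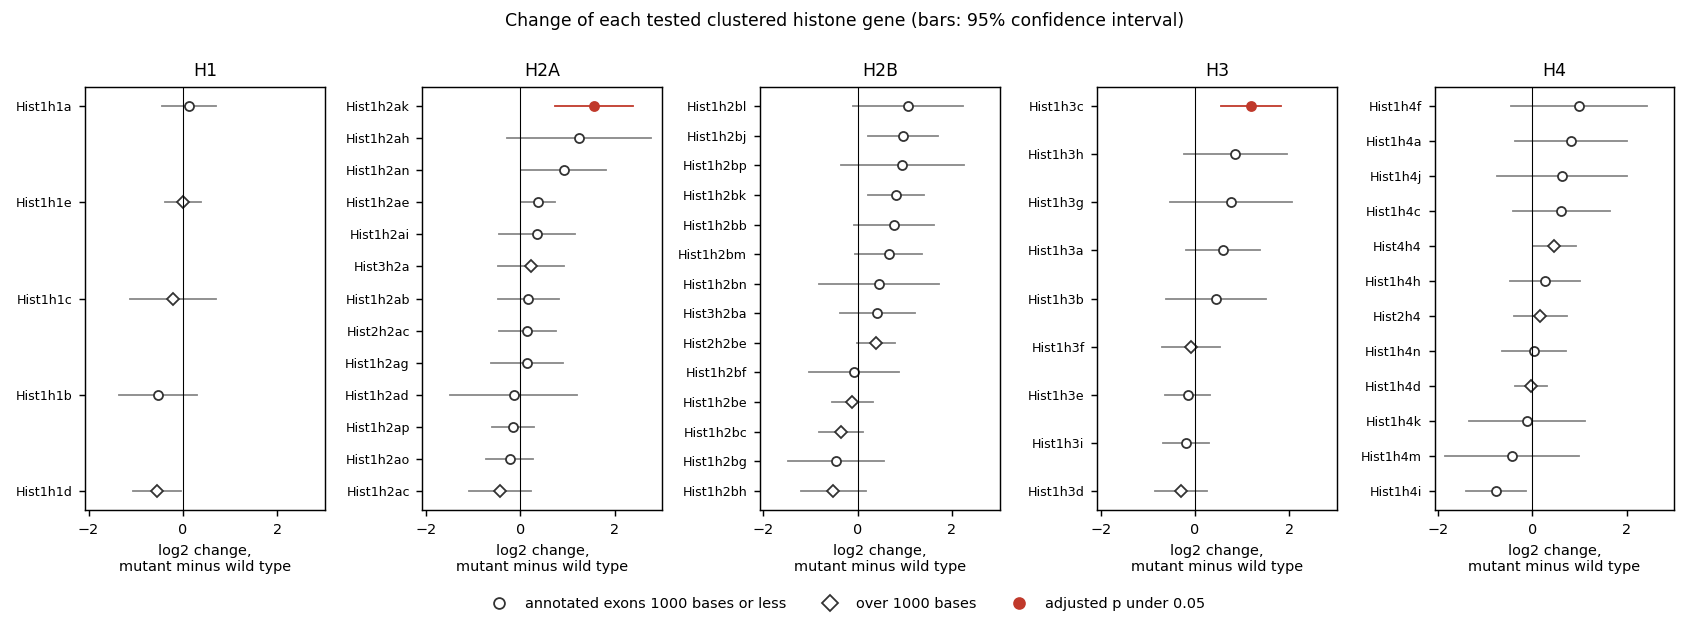
Log2 change (mutant minus wild type) of the 53 tested clustered histone genes by type, with 95% confidence intervals, diamonds for genes with over 1000 bases of annotated exon and circles for the others. Filled red symbols mark Hist1h2ak (1.57) and Hist1h3c (1.18), the genes with an adjusted p under 0.05.

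Among the 5 genes of H1, the linker histones that compact nucleosome arrays, 0 were called. Hist1h1b, highest of them in mean reads, had 694, 411 and 1463 normalised reads in the mutant libraries, against 1262, 850 and 1174 in the wild-type libraries. Mutant replicates 1 and 2 were below every wild-type library and mutant replicate 3 was above them (log2 change -0.53 ± 0.37, limma adjusted p = 0.350). Hist1h1e had 631, 596 and 835 in the mutant and 702, 585 and 766 in the wild type, and its log2 change of -0.00 ± 0.17 took either sign with the scaling. Hist1h1d, chosen after its values were seen, had 155, 158 and 244 in the mutant and 297, 271 and 231 in the wild type (-0.55 ± 0.23, limma adjusted p = 0.129). Its highest mutant value lay inside the wild-type range. Without mutant replicate 3, Hist1h1b was called lower (log2 change -1.01, adjusted p = 0.0263), while without mutant replicate 2 its change was -0.099 (adjusted p = 0.856). Without mutant replicate 3 Hist1h1d was called as well (-0.76, adjusted p = 0.0432). The 5 genes summed to 2324 ± 922 in the mutant and 2766 ± 636 in the wild type. Their median log2 change was -0.22, with 4 of 5 below 0, and ran from -0.53 without mutant replicate 3 to 0.02 without wild type replicate 1.

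Of 13 tested H2A genes Hist1h2ak was the one called, 9 had a log2 change above 0, and the median was 0.17 (0.06 without mutant replicate 3 to 0.34 without mutant replicate 1). Hist3h2a (chr11:58954685-58956830, plus strand), whose annotated exon overlaps that of the listed gene Trim17 on the same strand, had 2959, 5026 and 5412 normalised reads in the mutant libraries, against 6006, 3577 and 2342 in the wild-type libraries. The lowest and the highest value were both wild type, and the genotypes overlapped over nearly the whole range (0.23 ± 0.32, limma adjusted p = 0.658; -0.10 without wild type replicate 3). Hist1h2ae had 1171, 1791 and 1413 in the mutant and 1199, 1068 and 1044 in the wild type. Its mutant replicate 1 lay among the wild-type values (0.38 ± 0.16, adjusted p = 0.128; 0.53 and 0.0451 without that library, 0.22 and 0.368 without mutant replicate 2, and 0.48 and 0.0460 with library weights). Hist1h2ac, chosen after its values were seen, had 863, 948 and 1022 in the mutant, against 1851, 1550 and 713 in the wild type. Wild type replicate 3 was below the mutant libraries while the other 2 were above them, and without it the gene was called lower (-0.85, adjusted p = 0.00664, against -0.43 and 0.336 with all libraries). Its change was -0.16 without wild type replicate 1 (adjusted p = 0.749) and -0.29 without wild type replicate 2 (0.617). H2A sums were 8180 ± 1732 in the mutant and 7756 ± 2653 in the wild type.

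Of 14 tested H2B genes 0 were called, 9 were above 0 and the median was 0.43 (0.32 to 0.65 with 1 library left out). Hist2h2be had 718, 753 and 651 normalised reads in the mutant libraries and 614, 414 and 610 in the wild-type libraries. The genotypes did not overlap, and the change did not pass the test (0.39 ± 0.18, limma adjusted p = 0.157). Hist1h2bg had 302, 356 and 928 in the mutant and 1126, 660 and 351 in the wild type, with mutant replicate 3 and wild type replicates 1 and 2 well above the others (-0.46 ± 0.46, adjusted p = 0.523). Another 3 H2B genes, named after their values were seen, did not overlap between the genotypes. With Hist2h2be these are 28.6% of the tested H2B genes, against 38.3% of all genes tested. Hist1h2bk had 185, 119 and 215 in the mutant and 99.7, 89.8 and 96.1 in the wild type (0.81 ± 0.27, adjusted p = 0.0592; edgeR 0.0494 and DESeq2 0.0196, equal library totals 0.0489; 0.0280 without mutant replicate 2). Hist1h2bj had 138, 132 and 211 in the mutant and 67.9, 58.3 and 129 in the wild type (0.96 ± 0.34, adjusted p = 0.0744; DESeq2 0.0462, library weights 0.0325; 0.0231 without wild type replicate 3). Hist1h2bb, the lowest of them, had 33.8, 43.5 and 57.4 in the mutant and 30.8, 20.1 and 25.8 in the wild type (0.78 ± 0.38, adjusted p = 0.182). H2B sums were 2839 ± 541 in the mutant and 2675 ± 655 in the wild type.

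Of 9 tested H3 genes Hist1h3c was the one called, with 5 above 0 and a median of 0.45. The median was 0.22 without wild type replicate 1 and 0.67 without mutant replicate 1, and -0.12 over H3 genes with a mean of at least 50. Hist1h3d, the highest in mean reads, had 191, 247 and 229 normalised reads in the mutant libraries and 291, 356 and 194 in the wild-type libraries (-0.30 ± 0.24, limma adjusted p = 0.432). Hist1h3i had 189, 167 and 238 in the mutant and 247, 181 and 249.1 in the wild type (-0.19 ± 0.22, adjusted p = 0.598). In both genes the genotypes overlapped. H3 sums were 1020 ± 155 in the mutant and 984 ± 134 in the wild type.

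Of 12 tested H4 genes 0 were called, 8 were above 0 and the median was 0.22. It ran from -0.01 without mutant replicate 3 to 0.33 without mutant replicate 2, and was 0.10 without wild type replicate 2 and 0.08 without wild type replicate 3. Hist1h4d, with 61.2% of the H4 sum, had 1441, 1296 and 1817 normalised reads in the mutant and 1717, 1351 and 1533 in the wild type (-0.02 ± 0.15, limma adjusted p = 0.934). The genotypes overlapped, and its sign turned with equal library totals (0.04). Hist4h4 had 321, 456 and 378 in the mutant and 345, 257 and 236 in the wild type, overlapping through mutant replicate 1 (0.47 ± 0.21, adjusted p = 0.147). Hist1h4i, named after its values were seen, was the 1 member in which every mutant library lay below every wild-type library, with 87.6, 93.3 and 111 in the mutant and 152, 123 and 247 in the wild type (-0.78 ± 0.29, adjusted p = 0.0892; edgeR did not call it and DESeq2 did, adjusted p = 0.0397). H4 sums were 2548 ± 423 in the mutant and 2436 ± 287 in the wild type.

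By cluster, Hist1 summed to 10792 ± 2249 normalised reads in the mutant and 11372 ± 2152 in the wild type. Within it, the 22 genes of the block at 21715763 to 22043676 had a median log2 change of 0.45 over 21 tested, and the 28 of the block at 23531050 to 23764406 a median of -0.01 over 26 tested, with 1 gene called in each. Hist3 summed to 4737 ± 1422 in the mutant and 4166 ± 1913 in the wild type, and the lone Hist4 gene is Hist4h4. Hist2 was the one cluster whose sums did not overlap, with 1011, 975.1 and 1005 in the mutant and 910, 636 and 855 in the wild type, and Hist2h2be made up 69.7% of it. Over all 53 tested members the median log2 change was 0.17, with 32 above 0 and 21 below, and over all genes tested it was 0.03. The members' median was 0.11 (29 above 0) without mutant replicate 3, 0.34 (38 above 0) without mutant replicate 1, 0.28 (39 above 0) without wild type replicate 1 and 0.27 (36 above 0) without mutant replicate 2. With the filter on low values set at a mean of 50, 35 members were tested, with a median of 0.03 and 18 above 0.

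A pair of libraries stood high across the members. The highest mutant value was in replicate 3 for 40 of 57 members (70.2%), against 33.3% of all genes with a row. The highest wild-type value was in replicate 1 for 38 of 57 members (66.7%), against 32.0% of all genes. In each type mutant replicate 3 was the mutant library that was highest in most members, from 6 of 10 H3 genes to 4 of 5 H1 genes. The summed level of the members was accordingly highest in these 2 libraries, at 20452 in mutant replicate 3 and 21351 in wild type replicate 1. The other mutant libraries had 13819.6 and 16463, and the other wild-type libraries 14943 and 13556.

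Members were also grouped by the annotated length of the gene model. Models of at most 1000 bases of exon are called short here, and some of them go on well past the stem-loop, such as Hist1h4c with 454 bases after it and Hist1h4j with 385, so that length is a rough guide only. In the long models Hist1h2bq, Hist1h2bc and Hist2h2be the search found no stem-loop. Of 39 tested members with short models 28 had a log2 change above 0 and 2 were called higher, with a median of 0.42. That median was 0.34 to 0.54 with 1 library left out, and 0.15 over the 21 short-model members with a mean of at least 50, 14 of them above 0. Of 14 tested members with longer models 4 were above 0 and 0 were called, with a median of -0.10. The long-model median ran from -0.22 without wild type replicate 3 to 0.02 without wild type replicate 1, and was 0.01 without mutant replicate 1. Genes with short models had a median of -0.08 over all 2909 tested and -0.03 over the 329 that are protein-coding. Level goes with model length as well: at a mean of 10 to 50 normalised reads the members' median was 0.77, beside 0.17 for all genes at that level, and at 200 to 1000 it was -0.19, beside 0.05. In summed reads, which the higher genes decide, core histone genes with short models had 4452, 5160 and 6348 in the mutant libraries, against 5681, 4154 and 4270 in the wild-type libraries. Those with long models had 7419, 9654 and 10729.7 in the mutant, against 12197, 8546 and 6706 in the wild type. The genotypes overlapped in both sums, and the difference between short and long models has no test here.

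Untailed RNAs other than histone messages were counted beside these genes, since they bear on what the priming captured. Of a list of 12, 9 had a row, and their sum was 990, 671 and 898 normalised reads in the mutant libraries, against 472, 473 and 286 in the wild-type libraries. The sums did not overlap between the genotypes, but Rn7sk made up most of the sum in each library. Among the 5 tested RNAs the genotypes did not overlap in 2 (40%), against 38.3% of all genes tested. Rn7sk, the 7SK RNA that holds back the elongation factor P-TEFb, had 687, 414 and 585 in the mutant and 286, 264 and 182 in the wild type and rose by 1.197 ± 0.24 on the log2 scale (limma adjusted p = 0.00735). The other 4 tested RNAs of the list had log2 changes above 0 that did not pass the test, among them Snord118, the U8 small nucleolar RNA, at 132 ± 37.4 in the mutant and 66.1 ± 27.5 in the wild type (1.04 ± 0.36, adjusted p = 0.0709; 0.0458 without wild type replicate 1 and 0.0362 with DESeq2). What part the capture of untailed RNA had in the changes of the short-model histone genes was not tested.

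**Figure D3:**
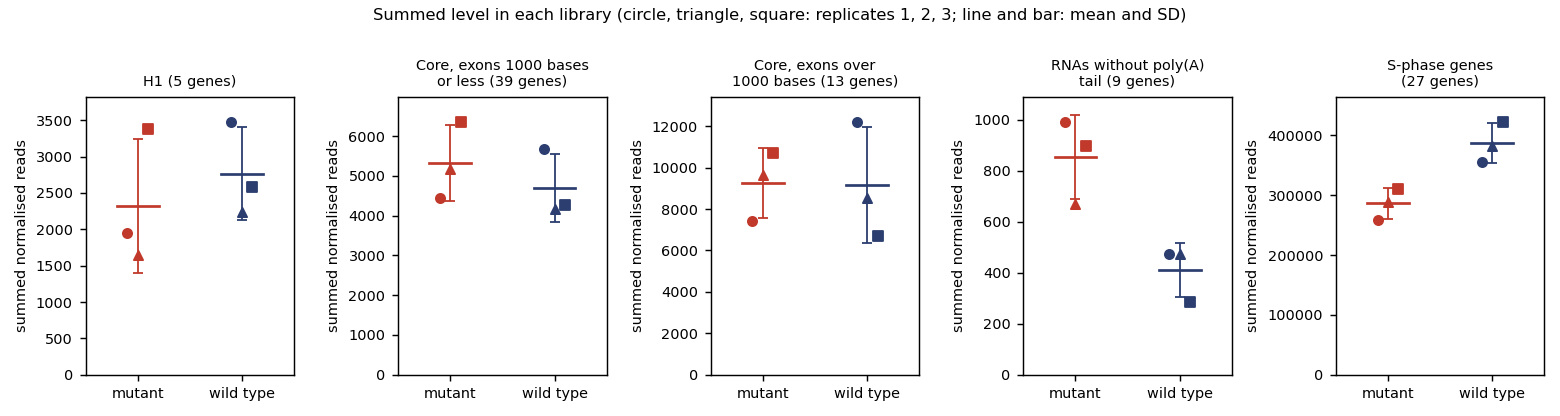
Summed normalised reads per library for H1 genes, core histone genes with short and with long models, RNAs without a poly(A) tail, and S-phase genes, with mutant left of wild type, the mean as a line and the SD as a bar (n = 3 each). The genotypes overlap in the 3 histone panels. In the mutant the sum of untailed RNAs, mostly Rn7sk, lies higher (671 to 990 against 286 to 473) and that of the S-phase genes lower.

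Many clustered histone genes stand head to head with a partner on the opposite strand, sharing a short stretch between their starts. In the annotation 13 pairs had starts within 1000 bases, 12 of an H2A with an H2B gene and 1 of an H2B with an H3 gene, at distances of 175 to 659 bases (median 267). In 10 pairs both partners were tested, and in 9 of these the log2 changes had the same sign, 6 times above 0. Some of these changes were small beside their error, as in Hist1h2bf (-0.08 ± 0.43) and Hist1h2ad (-0.14 ± 0.60). How often members that are not partners agree in sign was not counted. Levels of partners differed, by a ratio of mean reads of 1.26 to 36.1 over 11 pairs (median 2.03). Hist1h2ak, which rose, faces Hist1h2bn across 295 bases between GENCODE gene starts. The GENCODE model of Hist1h2ak starts at 21753827, while its RefSeq promoter window below begins further upstream, at 21753913. Distances between transcription starts may thus differ from those given. Hist1h2bn had 23.9 ± 3.51 normalised reads in the mutant and 20.1 ± 11.9 in the wild type (0.45 ± 0.57, limma adjusted p = 0.626). Hist1h2bk (0.81) faces Hist1h2ah (1.25 ± 0.69, adjusted p = 0.233), and Hist1h2bj (0.96) faces Hist1h2ag (0.14 ± 0.34, adjusted p = 0.804). The pair with opposite signs is Hist1h2ae (0.38) and Hist1h2bg (-0.46). The difference between partners was not tested.

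Promoters of these genes are built from a few short elements, and those of 3 members are shown because they belong to the highest H2A gene, to the H2A gene that rose and to an H2B gene near the threshold. Each is the 250 bases before the RefSeq gene start on GRCm38.p6, 5′ to 3′ on the gene's strand, with matches to the octamer ATTTGCAT, to CCAAT and to TATAAA (both strands; no pattern contains another) in capitals.
Hist3h2a, chr11:58954435-58954684, plus strand: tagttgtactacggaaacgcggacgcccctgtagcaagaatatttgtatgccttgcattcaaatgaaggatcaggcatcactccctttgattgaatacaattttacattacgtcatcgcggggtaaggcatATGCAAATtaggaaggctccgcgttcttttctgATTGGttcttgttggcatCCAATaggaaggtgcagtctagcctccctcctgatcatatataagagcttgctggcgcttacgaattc
Hist1h2ak, chr13:21753913-21754162, minus strand: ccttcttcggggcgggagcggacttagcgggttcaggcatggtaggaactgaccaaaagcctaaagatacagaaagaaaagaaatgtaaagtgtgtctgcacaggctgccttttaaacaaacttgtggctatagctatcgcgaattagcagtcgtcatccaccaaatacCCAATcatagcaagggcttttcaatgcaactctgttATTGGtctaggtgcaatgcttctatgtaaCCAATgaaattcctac
Hist1h2bk, chr13:22035571-22035820, plus strand: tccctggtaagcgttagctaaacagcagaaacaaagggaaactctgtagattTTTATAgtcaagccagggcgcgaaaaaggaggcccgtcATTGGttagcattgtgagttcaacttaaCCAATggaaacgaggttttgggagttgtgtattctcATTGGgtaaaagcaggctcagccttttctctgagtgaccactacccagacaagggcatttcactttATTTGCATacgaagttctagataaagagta
The window of Hist1h2ak reaches into the start of Hist1h2bn on the other strand. It held CCAAT on both strands and no match to the octamer, while Hist3h2a held octamer and CCAAT matches and Hist1h2bk matches to all 3 patterns. RefSeq promoters were matched for 62 members. The octamer, which Oct-1 (encoded by Pou2f1) binds in H2B promoters, was found in 7 of 18 H2A and 6 of 16 H2B promoters and in 0 of H1, H3 and H4. That is 21.0% of the 62, against 1.60% of 32851 promoters of the same length. CCAAT was found in 82.3% of members and 33.8% of all promoters, and in each of the 6 H1, 18 H2A and 16 H2B promoters, 8 of 10 H3 and 3 of 12 H4. TATAAA was found in 46.8% of members and 12.4% of all promoters. Windows of head-to-head partners can cover the same bases, as those of Hist1h2ag and Hist1h2bj nearly do. A match can thus be counted for both partners, so the members' promoters are not independent in these shares.

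Sequence shared between family members limits the counting. The 57 members with a row had a median of 76.6% of their 150-base stretches in no other annotated gene, with a range of 7.64% to 100%. Of the 10 members with no row 5 had 0% (Hist2h2aa1, Hist2h2aa2, Hist2h3c1, Hist2h3b and Hist2h2bb). The others are Hist2h2ab, Hist1h2br, and Hist1h1t, Hist1h2ba and Hist1h2aa, genes known for the testis. How reads that fit several genes were counted is not given in the sources used here, so levels of members with little sequence of their own, such as Hist1h2ap (9.01%) and Hist1h2ao (8.46%), are uncertain. The 40 members with at least 50% held both called genes, and their sum was 15321 ± 3111 in the mutant and 15039 ± 3928 in the wild type. The 4 members with a row that were too low for the test were Hist1h2af, Hist1h2bq, Hist2h3c2 and Hist1h4b. Hist1h2be and Hist1h1e overlap each other on the same strand, and reads of the overlap could belong to either.

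**Figure D4:**
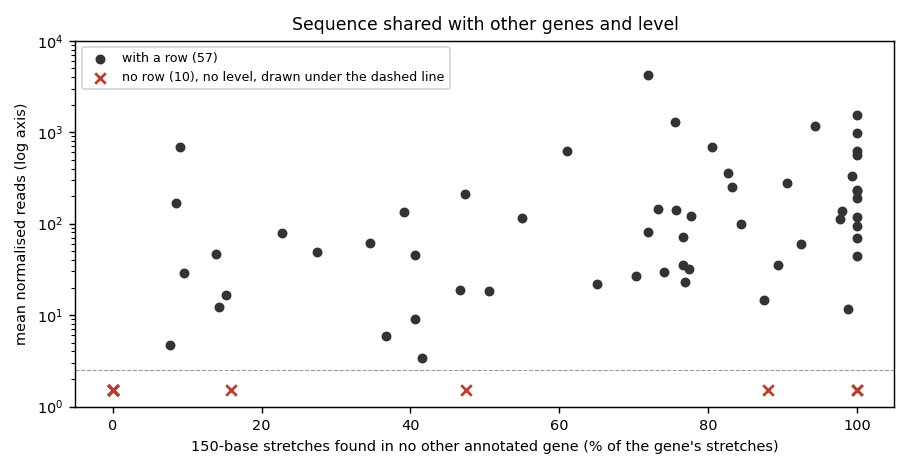
Mean normalised reads (log axis) of clustered histone genes against the percent of 150-base stretches of each gene found in no other annotated gene. The 57 genes with a row lie between 7.64% and 100%, and 5 of the 10 with no row (crosses, drawn under the dashed line, with no level) lie at 0%.

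Genes that work beside the clustered histone genes were counted in the same way, against the same 7.94% of all genes higher and 10.9% lower. Of 11 tested histone genes outside the clusters 1 rose and 1 fell, with a median log2 change of -0.01. H2afz, a replacement H2A of promoters, fell to 32509 ± 1959 normalised reads in the mutant, against 41287 ± 2321 in the wild type (-0.35 ± 0.09, limma adjusted p = 0.0237), and its relative H2afv rose, with 12204 ± 1577 in the mutant and 9329 ± 469 in the wild type (0.38 ± 0.11, adjusted p = 0.0353). Leaving out wild type replicate 2 or 3 ended both calls. That of H2afz was also lost without mutant replicate 2 (adjusted p up to 0.115), and that of H2afv on leaving out any library but mutant replicate 2 (up to 0.0993). H3f3a (0.05 ± 0.09), H3f3b (0.11 ± 0.14), H2afx (-0.06 ± 0.13) and H1f0 (0.46 ± 0.23) did not pass. H2afy2, a macroH2A gene with few reads, had 46.6 ± 24.7 in the mutant and 97.5 ± 35.8 in the wild type (-1.10 ± 0.41, adjusted p = 0.0931, and 0.0379 without mutant replicate 2).

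Of 22 genes of 3′-end processing and handling of histone messages 2 fell and 0 rose, with a median of -0.10. Slbp, which encodes the stem-loop binding protein, had 16453 ± 1584 in the mutant and 16816 ± 950 in the wild type (-0.03 ± 0.10, limma adjusted p = 0.839). Lsm11 of the U7 particle (-0.11 ± 0.13), Zfp473, which encodes a zinc finger protein of the U7 particle (-0.09 ± 0.38) and Casp8ap2, whose product FLASH joins the U7 particle (0.04 ± 0.11), did not pass either. Cpsf3, the endonuclease that cuts histone and polyadenylated messages alike, fell to 4774 ± 270 in the mutant, against 7361 ± 383 in the wild type (-0.62 ± 0.10, adjusted p = 0.00196), and Cpsf1 of the same machinery of polyadenylated messages fell by 0.36 ± 0.09 on the log2 scale (adjusted p = 0.0236). The cap-binding genes Ncbp1 (-0.31 ± 0.11) and Ncbp2 (-0.36 ± 0.12) did not pass, but Ncbp2 was called with a filter at a mean of 50 (adjusted p = 0.0466), robust eBayes (0.0458), library weights (0.0376) and DESeq2 (0.0329). Cpsf1 was not called when wild type replicate 2 or 3 or mutant replicate 1 or 2 was left out (adjusted p up to 0.112). Without wild type replicate 1 Ncbp1 was called as well (0.0449), which made the count 3.

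Of 12 regulators of histone gene transcription 2 fell and 0 rose, with a median of -0.16. Npat, the coactivator at the histone clusters, had 4000.1 ± 513 in the mutant and 4475 ± 539 in the wild type (-0.16 ± 0.13, limma adjusted p = 0.414). Cdc25a, the phosphatase that activates Cdk2, fell by 0.45 ± 0.11 (adjusted p = 0.0211), and E2f1 fell by 0.49 ± 0.12 on the log2 scale (adjusted p = 0.0222). Leaving out 1 library raised the adjusted p to as much as 0.0966 for Cdc25a and 0.0644 for E2f1. The count was 0 without wild type replicate 1 or 2 and 1 without wild type replicate 3 or mutant replicate 1 or 2. Pou2f1 (0.23 ± 0.11) and Cramp1l (0.37 ± 0.13) did not pass. Cramp1l was called with equal library totals (adjusted p = 0.0460) and with DESeq2 (0.0371).

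Of 23 genes of histone chaperones and import 8 fell and 0 rose (median -0.26): the importin gene Ipo4 by 1.08 ± 0.12, the H2A-H2B chaperone gene Nap1l1 by 0.84 ± 0.10, Ssrp1 of the FACT complex by 0.49 ± 0.09 and Mcm2, which also carries H3-H4, by 0.52 ± 0.10 on the log2 scale, besides Chaf1a, Chaf1b, Rbbp7 and Nasp, named after their values were seen. Without wild type replicate 2 the count was 5. Of 27 S-phase genes 17 fell and 0 rose, with 27 of 27 below 0 and a median of -0.49. The helicase genes Mcm6, Mcm7, Mcm5 and Mcm3 fell by 0.63 ± 0.10, 0.54 ± 0.09, 0.59 ± 0.10 and 0.56 ± 0.10 on the log2 scale (limma adjusted p from 0.00269 to 0.00495). Their count was 10 without wild type replicate 2 and 11 without wild type replicate 3. These lists were put together with earlier results of these data known, and the difference between them and the clustered histone genes has no test here.

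**Figure D5:**
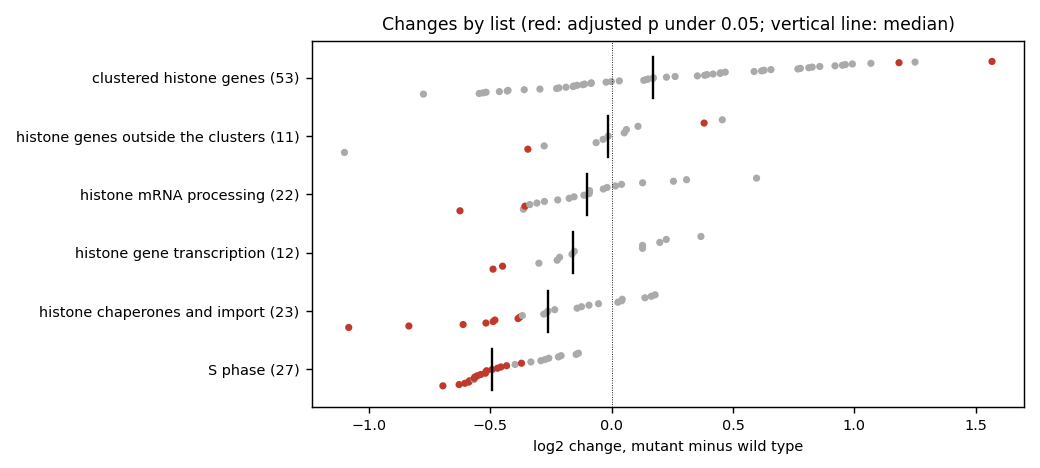
Log2 change (mutant minus wild type) of each tested gene in the clustered histone set and in the 5 lists around it, with red points for an adjusted p under 0.05 and a vertical line at each median. The clustered genes spread from -0.78 to 1.57 around a median of 0.17, and the 27 S-phase genes lie below 0 with a median of -0.49.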

How the data were processed

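RNA of the 6 DN3 thymocyte libraries was made into full-length cDNA with the SMART-Seq v4 kit, tagged with Nextera XT and sequenced as read pairs, per the labels' protocols. These kits do not record strand. Tools named in the submitters' processing notes are STAR 2.5.3 and featureCounts, with DESeq2 1.20.0, and the builds named there are mm10 and GRCm38. Neither the annotation release nor the counting options are stated in the labels or files. The deposited signal holds gene counts scaled by the authors with a single factor per library. When each library was divided by its smallest increment, 100% of 126810 values came out whole to within 0.1 reads. No listed gene had fewer than 20 reads in all. Of 21135 IDs 21100 matched GENCODE M21 (GRCm38) without their version and 19266 with it. Libraries of a genotype differed from each other by a chi-square of 26.7 to 55.3 per degree of freedom, so none repeats another.

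Genotypes were compared with limma 3.58.1 in R 4.3.3 (lmFit, eBayes with trend), two-sided, on log2(value + 1), as mutant minus wild type. The 17815 genes whose mean reached 10 were tested, with Benjamini-Hochberg adjustment at 0.05. An adjusted p with no tool beside it comes from limma, and fold changes on this scale are understated for low genes. Errors of log2 changes are standard errors, and errors of levels are SDs. Alternatives were other pseudocounts (0.5 and 5), filters (none, and a mean of 50), scalings (equal totals, TMM), a replicate block, robust eBayes, library weights, edgeR 4.0.16 and DESeq2 1.42.0 on the recovered reads, and leaving out each library. The methods were tested on simulated counts. Sums over members were not tested.

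Genes named are the called members, the 2 highest members of each type, up to 4 genes per list with the smallest p, and Slbp, Npat, Lsm11, Zfp473, Casp8ap2, H2afz, H2afx, H3f3a, H3f3b, H1f0 and Myc. Others are said to have been named after their values were seen, are cell type markers, or serve as examples of sequence. Members and lists were chosen with earlier results of these data known. Stem-loops and shared stretches came from GENCODE M21 transcripts, promoters from RefSeq (GRCm38.p6).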

Additional observations from a re-analysis of the deposited data

How the results depend on the processing

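The numbers of members called were 2 higher and 0 lower, and 1 higher with a filter at a mean of 50, where Hist1h2ak is too low to be tested. Library weights gave 4 higher (10% of all genes), DESeq2 gave 4 higher and 1 lower, and leaving out 1 library gave 0 to 3 higher and 0 to 2 lower. Over all genes 3352 were called (1414 higher and 1938 lower; 1827 and 1647 with equal library totals), and 1905 to 2788 with 1 library left out. Leaving out 1 library moved the calls to 0 to 2 in histone genes outside the clusters, 1 to 3 in message processing, 0 to 2 in histone gene transcription, 5 to 8 in chaperones and 10 to 18 in S-phase genes. Both genotypes use the same replicate numbers, but same-numbered libraries did not deviate together (correlations -0.022, -0.066 and -0.0097), and no mutant library correlated best with its own number. With that number as a replicate block, 3 members were called higher (Hist1h2bj in addition) and 0 lower, and 3066 genes in all.

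Signs turned in genes whose change is small beside its error. Hist1h1e took 0.058 with equal totals, 0.012 with TMM, 0.017 with library weights, 0.020 with edgeR, 0.011 with DESeq2, and -0.15 to 0.094 with 1 library left out. Hist1h4d took 0.037 with equal totals and -0.16 to 0.084 with 1 library left out, and Hist3h2a -0.10 to 0.58. Slbp took 0.025 with equal totals and -0.11 to 0.016 with 1 library left out. Zfp473 took 0.044 with edgeR, 0.038 with DESeq2 and -0.35 to 0.40 with 1 library left out. Leaving out 1 library gave -0.0016 to 0.12 for Casp8ap2, -0.17 to 0.072 for H2afx and -0.065 to 0.22 for H3f3b. The cause of these turns was not tested. Of the other values for single genes under an alternative, 702 kept direction and call, 22 lost a call and 13 gained one. Of 57 members 22 had a mean under 50 normalised reads, and few reads limit what can be detected in a gene. What part this had in the number of members called was not tested. At a mean of 200 to 1000 normalised reads 0 of 13 members were called, against 25.5% of genes, and the cause was not tested.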
